A study of Mus musculus with 2 samples.

Results

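The genes described here are 10 markers of bile duct epithelium and of liver progenitor cells, namely Sox4, Sox9, Tm4sf4, Prom1, Epcam, Krt7, Krt8, Krt18, Krt19 and Tspan8. They were found by symbol, and all 10 of 10 were among the 31053 mouse genes of the count table. They were followed in hepatocytes, defined as cells in which Alb, Apoa1, Apoa2, Ttr and Fgb together made up at least 1% of unique molecules (UMIs), by their level of Nras in UMIs per 1000000 UMIs (CPM), and were set beside cells in which Epcam was detected. The mice were of the strain labelled BL6 (C57BL/6 in the study's methods, by which they were female and 6 to 8 weeks old at injection). Each of the 3 received, by hydrodynamic tail-vein injection, a transposon with the yellow fluorescent protein mVenus and human NRAS behind the strong CAGGS promoter, together with a transposase. The NRAS carried G12V, which is oncogenic, in 2 mice and G12V with D38A, a change in the effector loop that takes away the oncogenic activity, in the control mouse. Livers were taken on day 6, cells of each mouse were labelled with an antibody-borne DNA tag (a hashtag), sorted for mVenus, pooled and run on 2 lanes of the 10x 3′ platform. The injection reaches only a subset of hepatocytes, and the copies that each cell keeps are not controlled, so NRAS differs from cell to cell within a liver.

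Hepatocytes and cholangiocytes, the cells of the bile ducts, arise from a common precursor, the hepatoblast. Sox9 and Sox4 are transcription factors that act together in bile duct formation, and Sox9 also marks periportal hepatocytes and injury-induced progenitor-like cells. Krt8 and Krt18 pair into the keratin filaments of hepatocytes and of duct cells, whereas Krt7 and Krt19 are keratins of duct cells. Epcam is an epithelial adhesion protein of ducts and progenitors, Prom1 (CD133) a membrane protein used to isolate progenitors, Tspan8 a tetraspanin of epithelial cells, and Tm4sf4 a membrane protein related to the tetraspanins.

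The library held 142080194 UMIs in 13151 cell barcodes, with a median of 3908. Of 10056 cells kept, 8394 were hepatocytes by the rule, and 2236 of these had at least 10000 UMIs and are called deep here. Deep hepatocytes were placed in 4 Nras classes, baseline (under 300 CPM of Nras, 1666 cells), low (300 to under 1000, 260 cells), intermediate (1000 to under 3000, 176 cells) and high (3000 and over, 134 cells). The mouse Nras row takes up reads of the construct, and an mVenus UMI was found in 17.3, 79.6, 93.8 and 99.3% of these cells. The share was 1.70% in the 1232 cells of other types, which carried at least 1% of UMIs from their own markers. Of the 10 listed hepatocyte markers 5 had chosen the cells. The 5 others (Hnf4a, Serpina1c, Cps1, Apoc3 and Ahsg) were detected in each class, and their summed level was 16138 CPM at baseline and 6134 CPM in the high class, against 827 CPM in cells of other types. Of the defining duct markers outside the member genes, Cftr and Sctr had 0 UMIs in the high class, in which Krt19 also had 0. The 45 markers of other cell types summed to 678, 463, 557 and 633 CPM from baseline to high, and 5, 15, 15 and 14 of them were at 0. Median depth also moved with the class, at 36003, 48026, 59392 and 52762 UMIs.

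A hashtag could be called for 1385 of the 2236 deep hepatocytes, with 231 cells of hashtag 1, 1129 of hashtag 2 and 25 of hashtag 3. Hashtag 2 was a G12V mouse in every source. The deposited pairing gives hashtag 1 to the D38A mouse and hashtag 3 to a G12V mouse, and the study's methods the reverse. The question asked here was therefore how the marker genes followed the Nras level across mice, with UMIs summed per hashtag and class, the hashtag as a block and no genotype term. Sums of at least 5 cells entered the fit. These were the 4 classes of hashtags 1 and 2 and the baseline class of hashtag 3, so that contrasts between classes rest on 2 mice. p-values are from edgeR's quasi-likelihood test with Benjamini-Hochberg adjustment over 10628 genes, and errors are standard errors (SE). In high against baseline, 23.7% of all genes tested passed, 11.9% higher and 11.8% lower.

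Of the 10 marker genes, 8 had enough UMIs to be tested, and Krt7 and Krt19 did not. Between the high and the baseline class 5 of the 8 were higher and 0 lower. Krt18, Krt8, Tspan8 and Tm4sf4 rose by log2 fold changes of 1.35 to 1.88 and Sox9 by 0.79, whereas Sox4, Prom1 and Epcam did not pass. The median log2 fold change was 1.55 over the 8 genes and −0.02 over all genes tested.

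**Figure D1:**
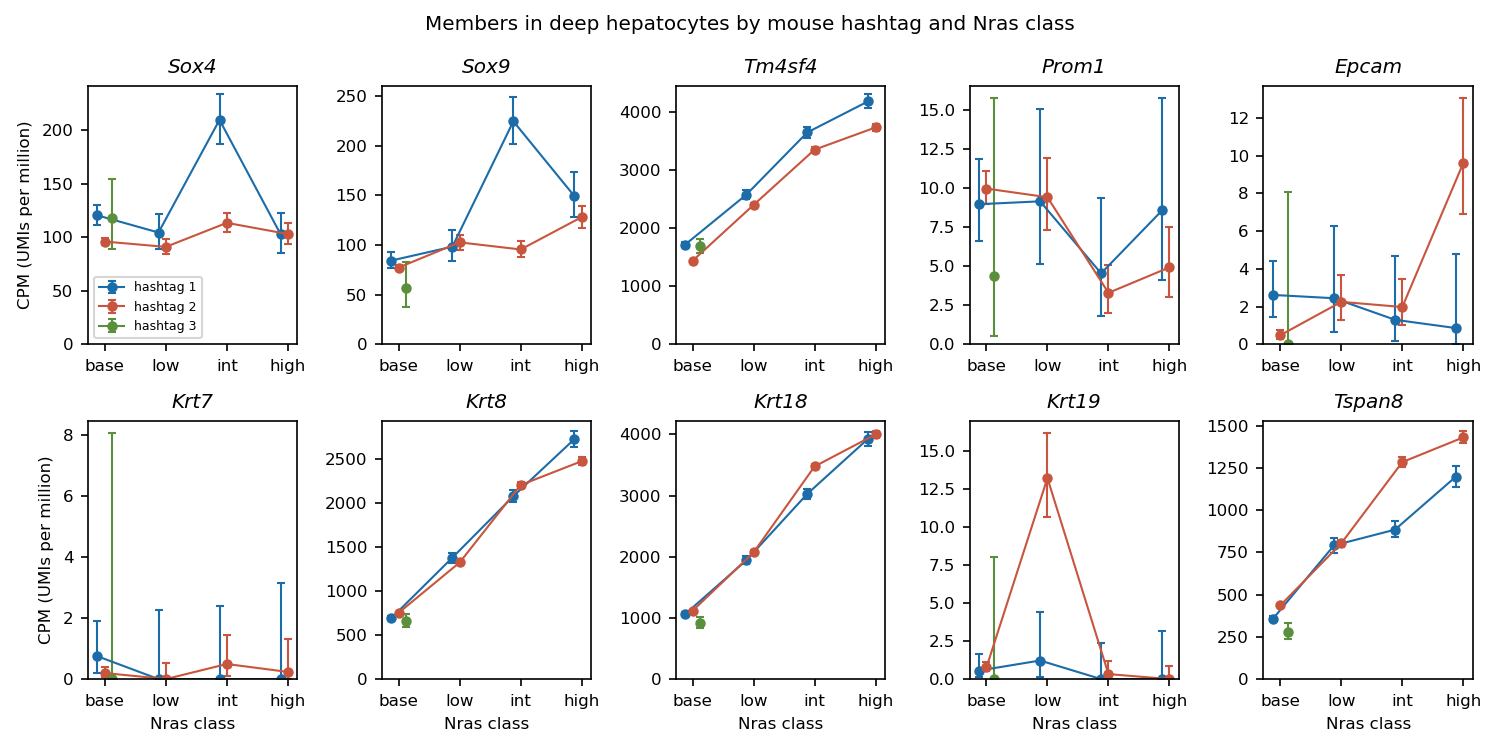
Level of each marker gene, in UMIs per 1000000 UMIs (CPM, vertical axis from 0), in deep hepatocytes by Nras class (base, baseline; int, intermediate) for hashtags 1, 2 and 3. Points are UMI sums of at least 5 cells and bars are exact Poisson 95% intervals, which cover counting error only. Krt8, Krt18, Tm4sf4 and Tspan8 were higher in every following class in hashtags 1 and 2, and Krt18 reached 3931 and 3999 CPM.

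The keratin pair rose in both mice. Krt18 (chromosome 15, 102028180 to 102032027, GRCm38, plus strand) stood at 1063, 1940.4, 3027 and 3931 CPM in the baseline, low, intermediate and high classes of hashtag 1. The same classes of hashtag 2 had 1116, 2069, 3475 and 3999 CPM, and the baseline of hashtag 3 had 922 CPM. Every high sum lay above every baseline sum, and both mice rose at each step. The log2 fold change of Krt18, high against baseline, was 1.88 (SE 0.09, edgeR adjusted p = 1.23e-06). Krt8 (chromosome 15, 101996698 to 102004482, minus strand) stood at 693, 1379.6, 2078 and 2726 CPM in the same order for hashtag 1, and at 753, 1325, 2205 and 2476 CPM for hashtag 2, with 664 CPM in the baseline of hashtag 3. Its log2 fold change was 1.87 (SE 0.10, edgeR adjusted p = 1.90e-06), with high and baseline sums again apart. The ratio of Krt8 to Krt18 UMIs hardly moved, at 0.674, 0.662, 0.644 and 0.647 from baseline to high in the pooled cells. In cells of other types, which should hold little of either, the levels were 60.8 CPM for Krt8 and 85.1 CPM for Krt18.

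The rise was a shift of most cells and not of a few. The median cell held 863 CPM of Krt18 at baseline (interquartile range 474 to 1467) and 3660.2 in the high class (2595 to 5175). For Krt8 the medians were 553 (299.5 to 1007) and 2269 (1521 to 3272) CPM. Leaving out the cell with the most Krt18 UMIs changed the pooled high level from 4013 to 3918 CPM. Hepatocyte genes, depth and markers of other types also differed between the classes, and their part in the rise was not tested beyond these alternatives. The log2 fold change of Krt18 was 1.85 without cells in which markers of other types reached 0.1%, 1.82 with a depth minimum of 20000 UMIs and 1.47 where hepatocyte genes made up at least 5%. For Krt8 it was 1.85, 1.81 and 1.28.

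The membrane proteins Tm4sf4 and Tspan8 followed the same order. Tm4sf4 (chromosome 3, 57425314 to 57441677, plus strand) had 1717, 2574, 3646 and 4183 CPM from baseline to high in hashtag 1. The sums of hashtag 2 were 1437, 2398, 3349.8 and 3732 CPM, with 1686 CPM in the baseline of hashtag 3. High and baseline sums did not overlap, and the log2 fold change was 1.35 (SE 0.08, edgeR adjusted p = 2.19e-06). Tspan8 (chromosome 10, 115816832 to 115849893, plus strand) stood at 357, 791, 885 and 1199 CPM for hashtag 1 and at 436, 804, 1285 and 1431 CPM for hashtag 2. The baseline of hashtag 3 had 282 CPM. Its log2 fold change was 1.75 (SE 0.12, edgeR adjusted p = 6.23e-06). The genes differed in how their cells were spread. In the high class the median cell had 3867 CPM of Tm4sf4 (interquartile range 2629.9 to 5019.9), and for Tspan8 it had 976 (394 to 2012). A Tspan8 UMI was found in 91.8% of the high cells and a Tm4sf4 UMI in 100%. Cells of other types had 48.0 CPM of Tm4sf4 and 18.8 CPM of Tspan8.

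**Figure D2:**
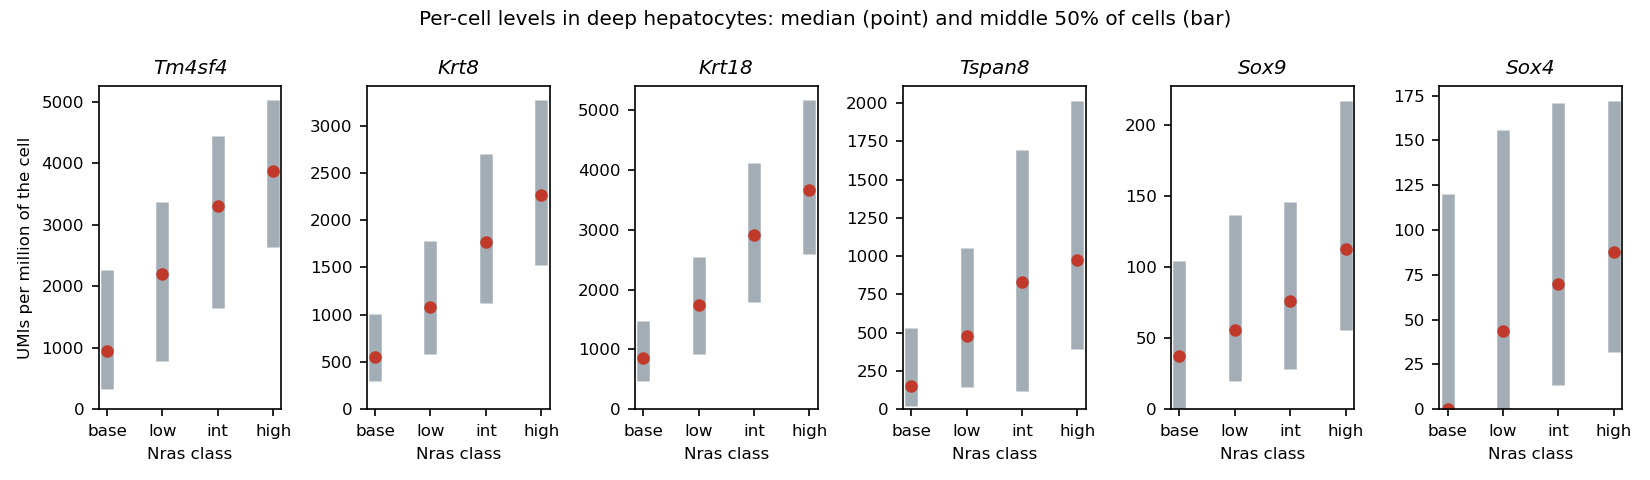
Level in CPM of each deep hepatocyte (vertical axes from 0) by Nras class for 6 marker genes, with the median cell as a point and the interquartile range as a bar. For Krt18 the bar of the high class (2595 to 5175) lay wholly above that of the baseline class (474 to 1467), whereas the bars of Tspan8, Sox9 and Sox4 overlapped.

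The promoters of the genes that rose the most are shown since they moved together across the sums. RefSeq windows of GRCm38.p6 run from 250 bases before to 50 after a start, and 8 of the 10 genes besides a second window of Prom1 could be matched. Sox9 and Krt19 were not matched. Letters were searched on both strands for motifs bound by AP-1 (TGANTCA), TEAD (GGAATG), SOX (AACAAT) and ETS (CCGGAAG) factors and for a TATA box (TATAAA). Matches stand in capitals, and the windows read 5′ to 3′ on the strand of the gene, at chr3:57425160-57425459 (plus), chr15:102004293-102004592 (minus), chr15:102027966-102028265 (plus) and chr10:115817034-115817333 (plus) in the order printed.
Tm4sf4: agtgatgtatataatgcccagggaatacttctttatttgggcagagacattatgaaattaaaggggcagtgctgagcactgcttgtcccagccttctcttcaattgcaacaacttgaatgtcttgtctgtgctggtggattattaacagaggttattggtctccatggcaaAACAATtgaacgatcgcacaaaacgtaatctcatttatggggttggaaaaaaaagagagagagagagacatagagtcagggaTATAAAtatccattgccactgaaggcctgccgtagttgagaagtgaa
Krt8: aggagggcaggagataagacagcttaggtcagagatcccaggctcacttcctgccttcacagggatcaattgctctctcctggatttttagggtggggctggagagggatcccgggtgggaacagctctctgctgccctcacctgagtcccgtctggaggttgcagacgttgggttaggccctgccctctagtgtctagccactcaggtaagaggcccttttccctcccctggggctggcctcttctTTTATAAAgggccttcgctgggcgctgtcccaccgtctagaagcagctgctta
Krt18: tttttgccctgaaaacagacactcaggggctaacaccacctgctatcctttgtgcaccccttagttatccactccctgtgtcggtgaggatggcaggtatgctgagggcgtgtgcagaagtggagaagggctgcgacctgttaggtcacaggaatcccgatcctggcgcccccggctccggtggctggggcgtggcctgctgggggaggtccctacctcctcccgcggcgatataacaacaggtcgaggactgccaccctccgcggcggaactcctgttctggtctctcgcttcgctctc
Tspan8: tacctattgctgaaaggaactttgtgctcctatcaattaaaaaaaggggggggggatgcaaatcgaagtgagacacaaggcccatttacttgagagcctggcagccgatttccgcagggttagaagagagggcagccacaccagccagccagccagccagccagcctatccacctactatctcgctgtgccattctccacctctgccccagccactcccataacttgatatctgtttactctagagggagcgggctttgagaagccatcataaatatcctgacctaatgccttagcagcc

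Tm4sf4 held a SOX match that began 79 bases before the start and a TATA match that began 4 bases after it. Krt8 held TATA matches on both strands that began at bases −3 and −1 and overlapped. Krt18 and Tspan8 held none of the 5 motifs. Elsewhere among the marker genes a TEAD match stood at base −168 of Sox4 and an AP-1 match at base −88 of Prom1, with another at base −189 of its further window, and Epcam and Krt7 held none. For scale, of 32851 promoter windows of this length 7.81% held the AP-1 letters, 14.7% the TEAD, 10.7% the SOX, 8.86% the ETS and 13.6% the TATA letters. A match describes letters only.

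Of the transcription factors, Sox9 passed the test and Sox4 did not. Sox9 (chromosome 11, 112782224 to 112787760, plus strand) had 84.3, 98.2, 224 and 149 CPM from baseline to high in hashtag 1. The sums of hashtag 2 were 77.3, 103, 95.4 and 128 CPM, with 56.8 CPM in the baseline of hashtag 3. The high sums lay above the baseline sums, but in hashtag 1 the intermediate class was highest, with 68 of its 346 UMIs in 1 cell. The log2 fold change of Sox9 was 0.79 (SE 0.25, edgeR adjusted p = 0.0438). It did not pass with DESeq2 (adjusted p = 0.0925), without the hashtag block (edgeR adjusted p = 0.0588) or when hepatocyte genes had to make up 5% (edgeR adjusted p = 0.135). The share of cells with a Sox9 UMI was 64.3% at baseline and 90.3% in the high class. With each cell thinned to 10000 UMIs it was 40.0% (exact binomial 95% interval 37.6 to 42.4) and 70.9% (62.4 to 78.4). With each cell thinned to 2000 UMIs it was 14.3 and 26.9%, against 0.0847% of cells of other types, whose median depth was 7784 UMIs.

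Sox4 (chromosome 13, 28948919 to 28953713, minus strand) stood at 120.3, 104, 209.6 and 102.9 CPM for hashtag 1 and at 95.9, 90.9, 113 and 102.95 CPM for hashtag 2. The baseline of hashtag 3 had 118 CPM, and of the 323 UMIs in the intermediate class of hashtag 1, 101 were in 1 cell. High and baseline sums overlapped, with a log2 fold change of −0.01 (SE 0.18, edgeR adjusted p = 0.985). The spread over cells did differ between the classes. The median cell had 0 CPM of Sox4 at baseline (interquartile range 0 to 120.3) and 87.8 in the high class (32.0 to 172). After thinning to 10000 UMIs, 34.3% of baseline cells and 56.7% of high cells had a Sox4 UMI. The fitted level did not change with it, and no order is read from this share. The call for Sox4 depended on how cells were classed and assigned. Classes by mVenus gave a log2 fold change of 0.54 (edgeR adjusted p = 0.0344), groups of equal size by Nras within each hashtag gave 1.33 (0.00287), and a fixed rule for hashtags gave 0.44 (0.0437).

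**Figure D3:**
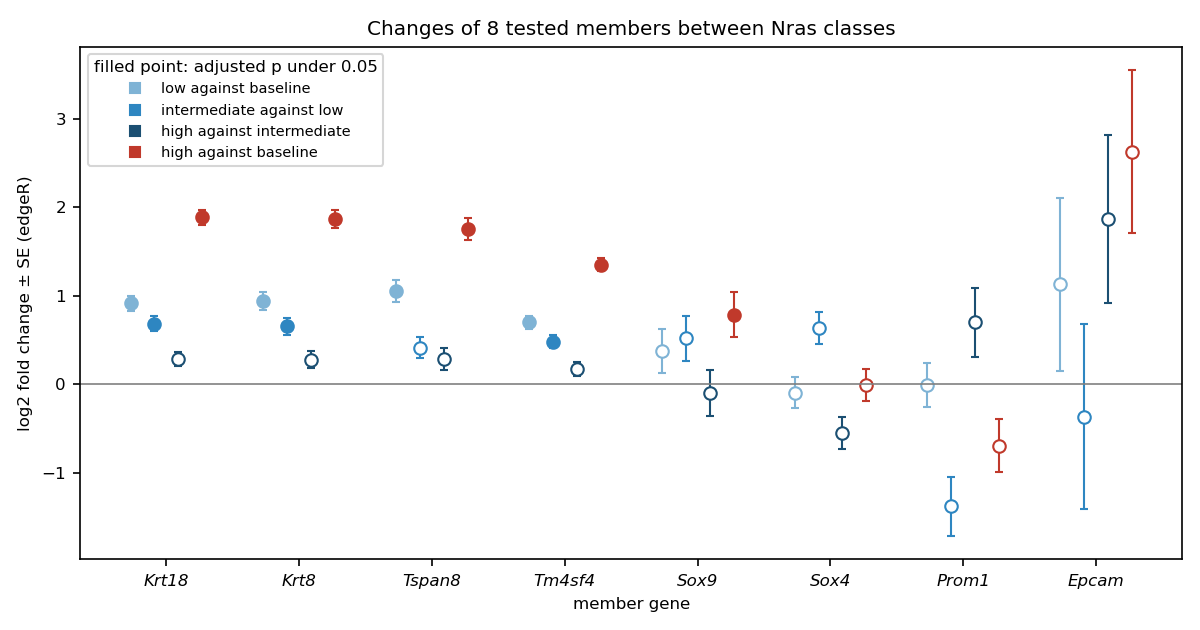
edgeR log2 fold changes (vertical axis) of the 8 tested marker genes for the 3 steps between neighbouring Nras classes and for high against baseline, with bars of 1 SE. Filled points passed an adjusted p of 0.05. Krt18 and Krt8 passed in the first and second steps, and none of the 8 passed in the third.

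The steps between neighbouring classes were then compared. In low against baseline 4 of the 8 tested genes passed, all higher, against 5.17% of all genes tested. Tspan8 rose by a log2 fold change of 1.05 (SE 0.12), Krt8 by 0.94 (SE 0.10), Krt18 by 0.91 (SE 0.08) and Tm4sf4 by 0.70 (SE 0.08). In intermediate against low, where 1.12% of all genes passed, 3 of the 8 were higher, Krt18 by 0.68 (SE 0.08), Krt8 by 0.65 (SE 0.10) and Tm4sf4 by 0.48 (SE 0.08). Without the hashtag block 0 of all 10628 genes passed at this step, and so 0 of the 8. There edgeR adjusted p was 0.165, 0.140 and 0.175 for these genes. In high against intermediate, 0.00941% of all genes passed and 0 of the 8 did by edgeR, and 0 by DESeq2. At an unadjusted edgeR p under 0.05 stood 5 of the 8, beside 561 of all 10628 genes. Of these 5, Krt18, Krt8, Tspan8 and Tm4sf4 were higher and Sox4 was lower (log2 fold change −0.55). Krt18 changed there by 0.29 (SE 0.08, edgeR adjusted p = 0.593). The number of calls per step depended on how classes were drawn. From the lowest to the highest step, equal parts by Nras gave 0, 0 and 2 marker genes, with 0, 0 and 581 of all 9897 genes called. Classes by mVenus gave 0, 3 and 1, with 9, 114 and 207 of 10481 called. Where hepatocyte genes made up at least 5%, 0 marker genes passed at each step, with 59, 2 and 1 of 8418 called. Whether the steps differ from one another was not tested.

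The keratins and adhesion proteins that mark duct cells stayed rare. Krt19 (chromosome 11, 100140810 to 100148665, minus strand) had 43, 96, 3 and 0 UMIs from baseline to high in the pooled deep hepatocytes. Only 15 of the 2236 cells had any, and 5 of them held 124 of the 142 UMIs. The 96 UMIs of the low class came from 5 cells, 64 of them from 1 cell. In hashtag 1 its levels were 0.561, 1.22, 0 and 0 CPM, in hashtag 2 they were 0.763, 13.2, 0.329 and 0 CPM, and the baseline of hashtag 3 had 0. A count of 0 in the high class allows a level of up to 0.421 CPM. This 0 holds for cells above the 1% limit for hepatocyte genes. With deep cells under that limit added, pooled Krt19 was 6.90 CPM in the high class and 1.45 CPM at baseline. In that high class 48 UMIs were in 1 cell. Cells of other types had 7.12 CPM. Krt7 (chromosome 15, 101411043 to 101430313, plus strand) had 19, 0, 6 and 1 UMIs from baseline to high, in 17 cells in all. Its level was 0.311 CPM at baseline and 0.140 CPM in the high class, under the 2.20 CPM of cells of other types. At this depth no change of Krt7 was detectable.

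Epcam (chromosome 17, 87635979 to 87651129, plus strand) had 71, 24, 22 and 52 UMIs from baseline to high. In hashtag 1 its levels were 2.62, 2.44, 1.30 and 0.857 CPM, and in hashtag 2 they were 0.480, 2.25, 1.97 and 9.61 CPM. The baseline of hashtag 3 had 0. Single cells weighed on both mice, with 9 of the 14 UMIs in the baseline of hashtag 1 and 30 of the 41 UMIs in the high class of hashtag 2 each in 1 cell. In hashtag 1 the exact Poisson 95% intervals of baseline (1.43 to 4.39 CPM) and high (0.022 to 4.78 CPM) overlapped. The log2 fold change was 2.63 (SE 0.92, edgeR adjusted p = 0.0648). Without the cells that held the most UMIs of each marker gene Epcam had too few UMIs to be tested, whereas it passed in 5 other alternatives, with edgeR adjusted p = 0.00227 when cells with markers of other types were left out. The share of deep hepatocytes with an Epcam UMI was 2.40% at baseline and 12.7% in the high class, and 1.08 and 2.99% after thinning to 10000 UMIs.

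Prom1 (chromosome 5, 43993620 to 44102032, minus strand) had a negative but uncalled difference. Its levels were 8.97, 9.15, 4.54 and 8.57 CPM for hashtag 1 and 9.97, 9.42, 3.29 and 4.92 CPM for hashtag 2, and 4.37 CPM in the baseline of hashtag 3. The groups overlapped, and the log2 fold change of −0.70 (SE 0.30) did not pass (edgeR adjusted p = 0.124). It passed with a depth minimum of 20000 UMIs (edgeR adjusted p = 0.0484) and with classes by mVenus (0.0449), with the same sign. Without hashtag 2 the log2 fold change was 0.0021, a value from hashtag 1 alone. Prom1 in cells of other types was 0.314 CPM.

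Within a class, cells with more of Krt8, Krt18 or Tm4sf4 also tended to have more of the others, and more weakly of Tspan8. This is a description over cells of the pooled library, each thinned to 10000 UMIs. Over the 134 high cells Spearman's rho was 0.78 for Krt8 with Krt18 and 0.53 for Tm4sf4 with Krt18. It was 0.25 for Krt18 with Tspan8 and 0.18 for Krt8 with Tspan8. Over the 1666 baseline cells these were 0.70, 0.70, 0.47 and 0.37. Sox9, which also passed, had a rho of only 0.05 to 0.13 with Krt8, Krt18, Tm4sf4 and Tspan8 over the high cells. The cells share the library, and cells are not replicates. For Sox4 with Sox9 rho was 0.19 over the high cells, and 0.37 over the 176 intermediate cells. At 10000 UMIs per cell, 61.9% of the 572 baseline cells with Sox4 had Sox9 as well, against 28.5% of the 1094 without it. In the high class these shares were 75 and 65.5%.

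The genes outside the set with the most similar pattern over the 9 sums were named by Pearson correlation of log2(CPM + 1) among 8086 genes. They were Serpinb6a (0.994) and S100a11 (0.993) for Tm4sf4, Tnfrsf12a (0.995) and Btc (0.995) for Krt8, and Fam213a (0.994) and Antxr2 (0.994) for Krt18. For Tspan8 they were Plaur (0.992) and Acsl5 (0.99), and for Sox9 they were Gem (0.958) and Sdf2 (0.948).

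The limit of 1% for hepatocyte genes left out a group in which several marker genes had higher pooled levels, for which no test across mice was made. There were 73 deep cells under the limit with under 0.1% of UMIs from markers of other types. They made up 1.77% of all such deep cells and hepatocytes at baseline, 6.47% in the low, 7.37% in the intermediate and 7.59% in the high class. Sox4 reached 781 CPM (exact Poisson 95% interval 747 to 815) in these cells against 125 CPM (123 to 127) in deep hepatocytes. Krt18 reached 5228 against 1769.8 CPM, Krt8 3403 against 1169.5 CPM, Sox9 213 against 98.3 CPM and Tm4sf4 3281 against 2059.7 CPM. Within a class the order was not always the same. In the high class Tm4sf4 was lower under the limit, at 2648 against 3762 CPM, as was Tspan8, at 1091 against 1309 CPM. In the intermediate class Sox9 stood at 114 against 125 CPM. Krt19 stood at 38.4 against 1.57 CPM, but 48 of its 100 UMIs were in 1 cell, which had 34773 CPM of Nras. High Sox4 was not limited to cells with much Nras, with 1097 CPM in the 30 cells of the baseline class, 893 in 18 low, 271 in 14 intermediate and 843 in 11 high cells. In the high class 193 of the 466 UMIs were in 1 cell. With these cells added to the fit the log2 fold change of Sox4, high against baseline, was 0.16 (edgeR adjusted p = 0.510), and that of Krt18 was 1.97.

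**Figure D4:**
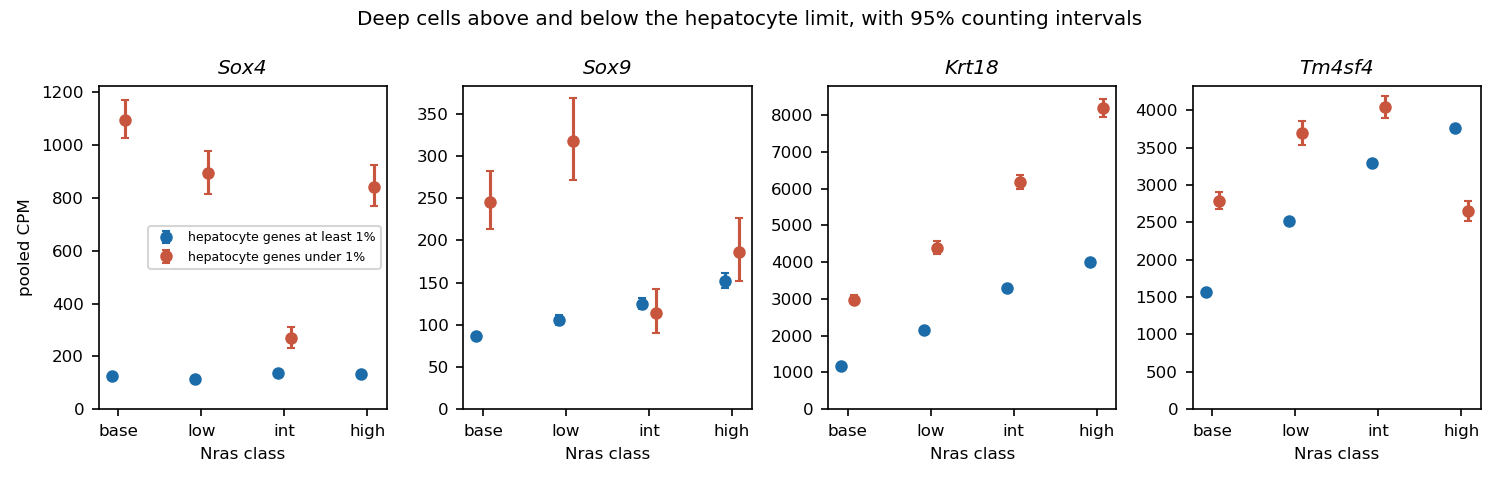
Pooled level (CPM, vertical axes from 0) of 4 marker genes by Nras class in deep hepatocytes and in deep cells whose hepatocyte genes made up under 1% of UMIs, with exact Poisson 95% intervals. Sox4 was higher in the cells under the limit in each class (271 to 1097 CPM against 115 to 138 CPM), and Krt18 was higher in each following class in both groups.

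Epcam was detected in 162 cells, of which 151 were kept, and 110 of these were hepatocytes by the rule. The 110 held a median of 1 Epcam UMI, and 86 had only 1. They had a median depth of 39540 UMIs, against 3908 over all barcodes, and depth raises the chance to find any gene. Their median Nras was 314 CPM, and 17 had none. Sox9 was found in 85.5% of them, Tm4sf4 in 98.2%, Sox4 in 80.9% and Krt19 in 16.4%. With each cell thinned to 2000 UMIs these shares were 26.9, 97.2, 36.1 and 7.41% in 108 cells, against 5.79, 44.8, 6.56 and 0.114% of 6115 hepatocytes without Epcam, which included shallow cells. Of shallow hepatocytes 1.81% held Sox9, 28.4% Tm4sf4 and 2.13% Sox4 at this equal depth. Of deep hepatocytes, with or without Epcam, the high class had 26.9, 94.03 and 21.6%, and baseline 14.3, 73.2 and 16.4%. The Sox9 share in cells with Epcam was thus no higher than in the deep high class. For Tm4sf4 it was near it, and for Sox4 and Krt19 it was higher than in each deep class. A comparison matched for depth and Nras class was not made. The remaining kept cells with Epcam were 17 of other types and 24 of neither kind. The 17 had a median of 1 Epcam UMI, 16 of them had at least 10 UMIs of Cd74, an antigen-presentation gene, and none had a UMI of Sox9, Sox4 or Krt19. A count of 0 in these cells allows a level of up to 16.3 CPM. The 24 had 208 CPM of Krt19, 19.6 CPM of Krt7 and 202 CPM of Epcam, against 19.0, 1.83 and 51.3 CPM in the 110 hepatocytes. Epcam chose the cells, so its own levels are no finding.

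**Figure D5:**
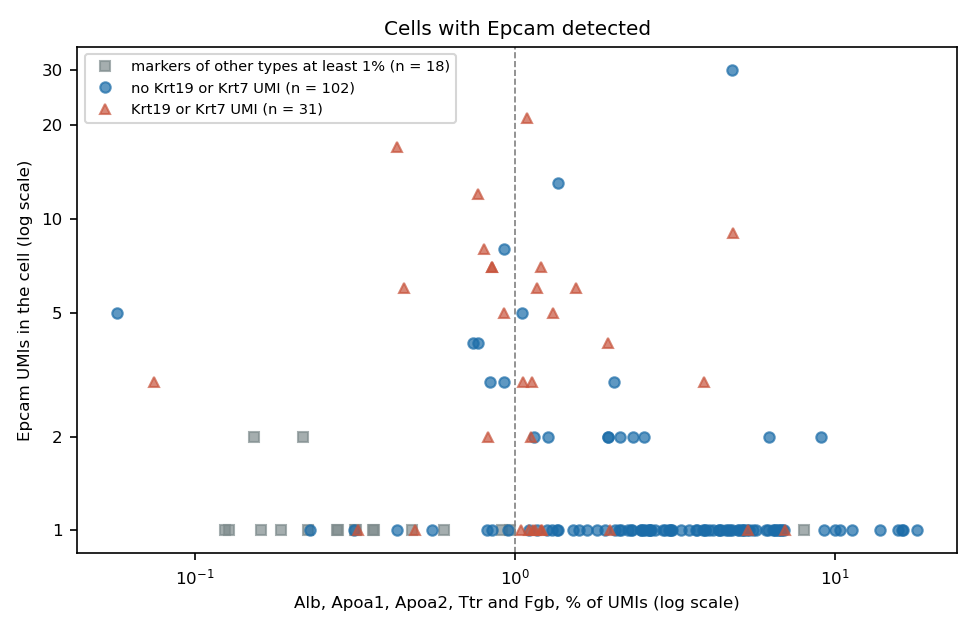
The 151 kept cells with Epcam by the share of UMIs from the 5 hepatocyte genes (horizontal, log scale, with the 1% limit dashed) and the Epcam UMIs of the cell (vertical, log scale). Squares are 18 cells with at least 1% of UMIs from markers of other types, triangles 31 others with a Krt19 or Krt7 UMI and circles 102 without, and of the 21 cells with at least 4 Epcam UMIs 11 lay under the limit.

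Cells with at least 4 Epcam UMIs were few. There were 21, with a median depth of 7089 UMIs and a median of 0.925% hepatocyte genes, so that 10 of them were hepatocytes by the rule. Of the 21, 14 had a Krt19 or Krt7 UMI, 19 had Sox9 and all 21 had Tm4sf4, and 14 had no Nras UMI. Only 3 had over 1000 CPM of Nras, and these had 0 Krt19 and 0 Krt7 UMIs. The cell with the most Epcam had 30 UMIs, 195 Nras UMIs, 311 of Krt18 and 1292 of Spp1. The next had 21 Epcam UMIs, 0 of Nras, 3 of Krt19 and 2 of Krt7. Of the 14 with a duct keratin, 10 had no Nras UMI and the others had at most 2. In 1 of these, with 5318 UMIs in all, 2 Nras UMIs came to 376 CPM. This holds only for cells with at least 4 Epcam UMIs. Of the cells with 1 Epcam UMI, 1 held 48 Krt19 UMIs at 34773 CPM of Nras, and another held 2 at 1217 CPM.

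To place the 10 genes, 33 further genes of ducts and progenitors were counted, of which 19 could be tested. In high against baseline 7 were higher and 4 lower, with a median log2 fold change of 0.26 against −0.02 over all genes. Spp1, the secreted protein osteopontin and a duct marker, stood at 3736 CPM in the baseline and 15376 CPM in the high sum of hashtag 1, at 2525 and 18506 CPM in those of hashtag 2 and at 2538 CPM in the baseline of hashtag 3. It rose with a log2 fold change of 2.48 (SE 0.15, edgeR adjusted p = 2.96e-06). The keratins Krt23 and Krt20 rose by 3.1 (SE 0.27) and 2.68 (SE 0.36), from levels of 3.65 and 2.39 CPM in pooled baseline cells. The hyaluronan receptor Cd44 rose by 2.41 (SE 0.15), the Notch ligand Jag1 by 1.52 (SE 0.26), Cd24a, a surface protein of progenitors, by 0.76 (SE 0.14) and the fetal serum protein Afp by 0.68 (SE 0.21). Afp did not rise at each step. From baseline to high it stood at 157, 305, 203 and 357 CPM in hashtag 1 and at 211, 355, 180 and 239 CPM in hashtag 2. Afp was 572 CPM in the baseline of hashtag 3, above every high sum, and its edgeR adjusted p of 0.0385 was 0.878 without the hashtag block. Among those that fell was Onecut1, a transcription factor of duct formation, with −2.76 (SE 0.41) and 0 CPM in the high sum of hashtag 1. The fetal growth regulator Dlk1 changed by −4.27 (SE 0.38), and Bicc1, an RNA-binding protein, by −1.19 (SE 0.17). Dlk1 was highest in the low class of both mice. From baseline to high it stood at 11.6, 15.9, 1.30 and 0 CPM in hashtag 1 and at 28.0, 35.7, 8.56 and 1.64 CPM in hashtag 2. In low against baseline 6 of the 19 passed, all higher, in intermediate against low 3 were higher and 1 lower, and in high against intermediate 0 passed by edgeR and 0 by DESeq2.

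For the comparison of NRAS(G12V) with NRAS(G12V/D38A) there was 1 control mouse, so values are given per hashtag over all its deep hepatocytes and no test was run. Krt18 was at 1868, 1748 and 1687 CPM in hashtags 1, 2 and 3, Krt8 at 1273, 1136 and 1165 CPM and Tspan8 at 616, 663 and 671 CPM. Tm4sf4 was at 2465, 1971 and 1872 CPM, Sox9 at 117, 86.9 and 85.3 CPM, and Sox4 at 129.7, 97.8 and 125 CPM. Prom1 was at 8.25, 8.72 and 4.92 CPM, and Epcam at 2.17, 1.63 and 0 CPM. Of these 8 genes Krt18, Krt8, Tm4sf4, Sox9, Sox4 and Epcam were highest in hashtag 1, which is the D38A mouse in the deposited pairing and a G12V mouse in the methods. The values are pooled over Nras classes whose shares differed, with 23 of 231 cells in the high class in hashtag 1 and 72 of 1129 in hashtag 2. Hashtag 3 rests on 25 cells. Its 2 cells of the high class had 5312 CPM of Krt18 and 2743 CPM of Tspan8, against 922 and 282 CPM in its 21 baseline cells. With the G12V mice of the methods alone, hashtags 1 and 2, the same 5 genes passed in high against baseline. Hashtag 3 had only a baseline sum, which its own block term took up. Leaving it out therefore hardly changes the class contrasts and is no separate check of them. With the G12V mice of the deposited pairing, hashtags 2 and 3, no residual degrees of freedom were left, and class contrasts came from hashtag 2 alone. The log2 fold changes were 1.82 for Krt18, 1.69 for Krt8, 1.69 for Tspan8, 1.35 for Tm4sf4 and 0.71 for Sox9.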

How the data were processed

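The authors ran single-cell RNA sequencing on the 10x platform, aligned reads to mm10 with Cell Ranger (version 3.0.2 per the file headers, 2.1.1 in the submitters' processing notes) and deposited raw UMI counts per gene and cell barcode, and UMI counts per hashtag made with CITE-seq-Count. The 2 tables shared 13141 barcodes. The 10 genes and the further gene list were chosen with earlier results of these data known, as were the lists of cell type markers.

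Cells were kept with at least 500 genes, 1000 UMIs and under 20% mitochondrial UMIs. Hashtags were called with HTODemux (Seurat 5.3.0), and 163 doublets between hashtags were removed, whereas doublets within a mouse could not be. The rows Nras and mVenus were left out of totals and tests. UMIs were summed per hashtag and Nras class over deep hepatocytes. Sums of a hashtag come from the same mouse, which is the source of the pairing, so the hashtag was a block. The 9 sums left 3 residual degrees of freedom. The lone baseline sum of hashtag 3 is taken up by its own block term. Contrasts between classes therefore rest on 2 mice of 1 pooled library. The fit moderates the dispersion of each gene by that of all genes tested. The p-values and SE thus rest in part on other genes and do not measure the spread between these mice alone. The test was edgeR 4.0.16 (filterByExpr, TMM, quasi-likelihood F-test, adjusted p under 0.05) in R 4.3.3, and SE was the absolute log2 fold change divided by the square root of F. The script was tested on simulated counts.

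Alternatives were DESeq2 1.42.0 and its size factors, no filter on low counts, no block, each hashtag left out, the G12V mice of either pairing, a fixed hashtag rule (at least 10 hashtag UMIs, 80% from 1 tag), other limits for depth, mitochondrial UMIs and hepatocyte genes, and classes by mVenus or by equal parts of each hashtag's cells. Another 4 settings were added after seeing the data, which left out cells with markers of other types or the 9 cells with the most UMIs of a gene, added cells under the hepatocyte limit, or lowered the depth minimum.

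Named in the text are all 10 genes, every gene of the further list called in high against baseline except 1 that is not reported here, and for each called gene the 2 others (at least 10 CPM in a sum) with the highest Pearson correlation. Intervals are exact at 95% and cover counting error only. The limit that a count of 0 allows is 3 counts. Gene positions are from GENCODE vM21 (GRCm38), in which 30934 of 31053 identifiers were found.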

Additional observations from a re-analysis of the deposited data

Results flagged for a closer look

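The log2 ratio of CPM, high over baseline, had opposite signs for Sox4 and Epcam in the 2 mice with a sum in each class. For Sox4 it was −0.23 in hashtag 1 and 0.10 in hashtag 2, and the exact Poisson 95% intervals of both classes overlapped in each mouse (111 to 130.0 and 85.3 to 123 CPM, and 92.7 to 99.2 and 93.5 to 113 CPM). For Epcam it was −1.61 in hashtag 1, from 14 and 1 UMIs with 9 of the 14 in 1 cell, and 4.32 in hashtag 2, from 17 and 41 UMIs with 30 of the 41 in 1 cell. The difference between the mice was not tested, since each hashtag is 1 mouse, and sources differ on whether hashtag 1 is the D38A mouse.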

How the results depend on the processing

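In high against baseline, Krt8, Krt18, Tspan8 and Tm4sf4 passed in every tested alternative. Of the marker genes, 5 of 8 passed in the reported fit, all higher, beside 2519 of all 10628 genes. With classes by mVenus 8 of 9 passed, 6 higher and 2 lower, beside 2894 of all 10481 genes. Of the further list 11 passed, against 7 with equal parts by Nras. In low against baseline, 4 marker genes and 6 list genes passed. Equal parts by Nras gave 0 and 0, classes by mVenus 0 and 0, and hepatocyte genes of at least 5% gave 0 and 1, whereas DESeq2 gave 3 list genes. In intermediate against low, 3 and 4 passed. No filter gave 8 and 9, cells with markers of other types left out gave 5 and 7, hepatocyte genes of at least 5% gave 0 and 0, equal parts gave 0 and 0, and the fixed hashtag rule gave 1 marker gene. In high against intermediate, 0 and 0 passed, against 1 and 2 without a filter, 2 and 6 with equal parts and 1 and 1 with classes by mVenus. Calls over all genes moved too. From the lowest to the highest step, equal parts gave 0, 0 and 581 of 9897 genes. Classes by mVenus gave 9, 114 and 207 of 10481, and hepatocyte genes of at least 5% gave 59, 2 and 1 of 8418. In intermediate against low, no filter gave 566 of 17690, cells with markers of other types left out 357 of 10287 and the fixed rule 163 of 9402. The causes were not tested.

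Without the hashtag block, that is without the pairing of sums from the same mouse, 2 list genes passed in low against baseline, and in intermediate against low 0 marker genes and 0 list genes did. Of all 10628 genes, 254 passed in the first of these contrasts and 0 in the second. Sox9 in high against baseline and Afp also lost their call without the block, and the block changed no call of Krt8, Krt18, Tspan8 or Tm4sf4 in high against baseline.

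Signs of called values turned in a few settings. Sox4, high against baseline, was 0.44 under the fixed hashtag rule, 1.33 with equal parts and 0.54 with classes by mVenus. With equal parts, intermediate against low was −0.26 for Tm4sf4 and −0.10 for Krt18, and Afp, high against baseline, was −0.050 under the fixed rule. Of 832 alternative values of single genes, 49 lost and 19 gained the call, and 45 had another sign than in the reported fit, 6 of them where one of the fits passed the threshold. Sox9 in high against baseline lost its call in 5 settings and Epcam gained one in 5, including with cells of other types' markers left out (edgeR adjusted p = 0.00227). Without hashtag 3, 5 marker genes passed, which is no separate check, since its lone baseline sum is taken up by its own block term. Without hashtag 1 or 2 no residual degrees of freedom were left, and class contrasts came from the other of these mice alone. Log2 fold changes were 1.82 to 1.95 for Krt18 and 1.69 to 2.04 for Krt8.

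Over all genes, 2519 passed in high against baseline by edgeR and 1364 by DESeq2, and 1016 where hepatocyte genes made up at least 5%. In low against baseline 549 passed, against 0 to 1033 over the alternatives, in intermediate against low 119 (0 to 566) and in high against intermediate 1 (0 to 581). With at least 2 Epcam UMIs, 41 cells in place of 151 remained, and of the hepatocytes among them 45.8% held Krt19 and 95.8% Sox9, against 16.4 and 85.5% with 1 UMI. Thinned to 2000 UMIs these were 7.41 and 26.9%. Depth limits Krt7, Krt19, Epcam and Prom1, which had 26, 142, 169 and 837 UMIs in all deep hepatocytes.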
